A study of Mus musculus with 12 samples.

Results

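The interferon regulatory factors (IRFs) are a family of transcription factors, and 8 of their genes were followed here in mouse splenic dendritic cells (DCs), namely Irf1, Irf2, Irf3, Irf4, Irf5, Irf7, Irf8 and Irf9. They were chosen by name, as the family members that act in DC development or in the response to microbial signals. The rule uses no measured value, but earlier results of these data were known when it was set. These 8 of the 17097 genes in the analysed table were read by 12 of its 28898 probe sets that carry a single gene symbol. Irf3 had 3 probe sets, Irf4 and Irf8 had 2 each, and the other 5 genes had 1 each. Gene expression was measured on 12 Affymetrix arrays in 4 groups of 3, which were miR-142 knockout (KO) DCs with lipopolysaccharide (LPS), KO DCs without stimulation, wild-type (WT) DCs with LPS and WT DCs without stimulation. All mice were C57BL/6 males aged 10 weeks, KO and WT were littermates, and each array came from 1 mouse, whose splenic DCs had been positively selected. Whether the LPS and unstimulated arrays of a genotype share mice is not stated. LPS is a bacterial cell wall component sensed by Toll-like receptor 4. The sources used here do not state its dose or duration, the surface marker of the selection or the design of the knockout allele. Most label fields call the cells DCs, but the free-text descriptions call them T cells.

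IRF proteins share a DNA-binding domain that recognises GAAA repeats, as in the interferon-stimulated response element (ISRE). Irf8 and Irf4 are DC lineage factors, Irf8 for type 1 conventional DCs (cDC1) and plasmacytoid DCs and Irf4 for type 2 conventional DCs (cDC2), and both bind DNA with PU.1 (Spi1) or BATF partners. Irf3, Irf5 and Irf7 are activated by phosphorylation downstream of pattern receptors, so their activity can change without a change of transcript. Irf9 acts in the nuclear complex that reads out type I interferon, Irf1 activates interferon-inducible genes, and Irf2 can occupy the same sites and oppose Irf1.

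The microRNA that the knockout removes gives 2 mature strands, whose RefSeq sequences (GRCm38.p6) are shown because they define the genotype. Both lie on the plus strand of chromosome 11, the 5p strand at chr11:87756867-87756887 and the 3p strand at chr11:87756903-87756925, and capitals mark the seed, bases 2 to 8.
mmu-miR-142a-5p: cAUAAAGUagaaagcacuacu
mmu-miR-142a-3p: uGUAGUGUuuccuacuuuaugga
No probe set carried the Mir142 symbol alone, so the knockout was not checked on these arrays.

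RefSeq promoters were matched for 8 of 8 genes, with 11 annotated starts. The 250 bases before the start are shown for Irf4, the member with the widest range over the arrays, and for the first annotated start of Irf8, the lineage factor with a genotype difference described further on. They lie on the plus strand of GRCm38.p6, at chr13:30748983-30749232 for Irf4 and at chr8:120736108-120736357 for Irf8. Capitals mark exact matches to the motifs searched, which were the ISRE (GAAANNGAAA), the gamma-activated site or GAS (TTCNNNGAA), a consensus site for NF-kB, and TATAAA, on both strands.
Irf4: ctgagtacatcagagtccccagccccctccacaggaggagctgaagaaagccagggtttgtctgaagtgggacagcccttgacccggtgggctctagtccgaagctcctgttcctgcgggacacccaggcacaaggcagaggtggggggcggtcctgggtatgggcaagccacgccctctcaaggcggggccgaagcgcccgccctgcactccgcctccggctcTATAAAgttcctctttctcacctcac
Irf8: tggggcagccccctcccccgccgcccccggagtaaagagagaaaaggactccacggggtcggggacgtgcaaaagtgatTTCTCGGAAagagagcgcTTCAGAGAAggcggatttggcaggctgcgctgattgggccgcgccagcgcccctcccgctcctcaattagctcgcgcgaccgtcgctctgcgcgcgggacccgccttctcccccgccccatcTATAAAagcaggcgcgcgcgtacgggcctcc
The Irf4 window held 1 TATAAA, at -26 to -21 from the start, and no match to the other 3 motifs. The Irf8 window held 2 GAS matches, TTCTCGGAA at -171 to -163 and TTCAGAGAA at -153 to -145, and a TATAAA at -31 to -26. Irf1 held a GAS match at -90 to -82 and an NF-kB match at -13 to -4. Irf2 held an ISRE match at -241 to -232, a GAS match at -224 to -216 and an NF-kB match at -17 to -8. Irf7 held a TATAAA at -29 to -24, and the windows of Irf3, Irf5 and Irf9 held no match. Of 32851 promoters of the same length, 2.98% held the ISRE letters, 7.02% the GAS letters, 7.25% the NF-kB consensus and 12.4% TATAAA. The GAS pattern is its own reverse complement, so each of its matches reads on both strands and was counted once.

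Array 2 of the KO LPS group stood apart, and the results for Irf4 and Irf8, the members' LPS differences in KO described below and the calls that changed are given with and without it. It correlated with the other arrays at 0.935 to 0.958, against 0.966 to 0.991 among the others. The gap between its 3' and middle Gapdh signals was 3.04 log2 units, against 1.53 to 1.86 on the others. Same-numbered LPS and unstimulated arrays deviated together within a genotype, with correlations of 0.263, 0.250 and 0.387 in KO and 0.352, 0.220 and 0.385 in WT. Between KO and WT, same-numbered arrays correlated at -0.0039, 0.0785 and 0.197 unstimulated and at 0.0069, 0.0748 and 0.170 with LPS. The fit as reported used no pairs, and a fit with the array number as a block is given where it changes a call. The 7 conventional DC markers averaged 7.62 to 7.84 in KO and 7.71 to 7.95 in WT without stimulation, and 7.27 to 7.82 in KO and at least 7.76 in WT with LPS, on the log2 scale, and the mean of each lay above the median probe set. The 5 measured T cell markers averaged 3.39 to 3.61 in KO and 3.40 to 3.91 in WT. All 5 also lay above the median probe set, as did 6 of 6 measured B cell, 5 of 7 cDC1 and 4 of 6 cDC2 markers. The 9 measured macrophage and monocyte markers did too, averaging 5.82 to 6.28 in KO and 5.42 to 6.37 in WT. Lying above the median therefore does not set the DC markers apart. Of the 9 macrophage and monocyte genes, 0 were called between genotypes averaged over stimulation, with and without KO LPS array 2. Their part in the Irf values was not tested. Neutrophil markers averaged 6.06 to 8.37 on the KO arrays and 3.46 to 4.72 on the WT arrays, and natural killer (NK) cell markers 5.34 to 5.61 on KO and 3.22 to 4.07 on WT. Of these lists, 7 of 9 measured neutrophil genes and 7 of 8 NK genes were higher in KO averaged over stimulation at an adjusted p under 0.05. The same rule called 2.36% of all genes in either direction. Plasma cell markers averaged 4.03 to 4.50 on KO and 5.12 to 5.59 on WT, with 1 of 4 genes called lower. B cell markers, which mark cells that also use Irf4 and Irf8, averaged 4.93 to 6.14 on KO and 5.57 to 5.98 on WT. The 4.93 was KO LPS array 2, beside 5.81 and 6.07 on the other KO LPS arrays. Of 6 measured B cell genes, 1 was called higher and 0 lower in KO averaged over stimulation, with and without that array.

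In the fit over all 12 arrays, none of the 12 Irf probe sets passed an adjusted p of 0.05 (limma, Benjamini-Hochberg over all 28898 probe sets) in any of the 6 comparisons. Over all probe sets, the same rule called 0.163% in unstimulated KO against WT cells, 0.322% in KO against WT cells with LPS, 0.301% for LPS in KO, 0.128% for LPS in WT, 2.12% for KO against WT averaged over stimulation and 0% for the difference between the LPS effects. At an unadjusted p under 0.05 the Irf counts were 0 unstimulated (8.49% of all probe sets passed), 1 with LPS (13.9%), 0 for LPS in KO (9.53%), 0 for LPS in WT (4.93%), 1 averaged over stimulation (16%) and 0 for the difference (3.95%). Those 2 were Irf5 with LPS and Irf8 averaged over stimulation. Leaving out KO LPS array 2, both Irf4 probe sets were called higher with LPS in KO cells and 1 Irf8 probe set was called higher in KO cells averaged over stimulation. The same rule then called 0.429% of all probe sets higher with LPS in KO and 2.07% higher in KO averaged over stimulation. The other 4 comparisons without that array called no Irf probe set, where 0.851% of all probe sets were called unstimulated, 0.433% with LPS, 0.36% for LPS in WT and 0% for the difference. At an unadjusted p under 0.05 these 4 held 1 Irf probe set unstimulated (12.7% of all passed), 4 with LPS (9.6%), 3 for LPS in WT (7.23%) and 1 for the difference (3.86%).

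**Figure D1:**
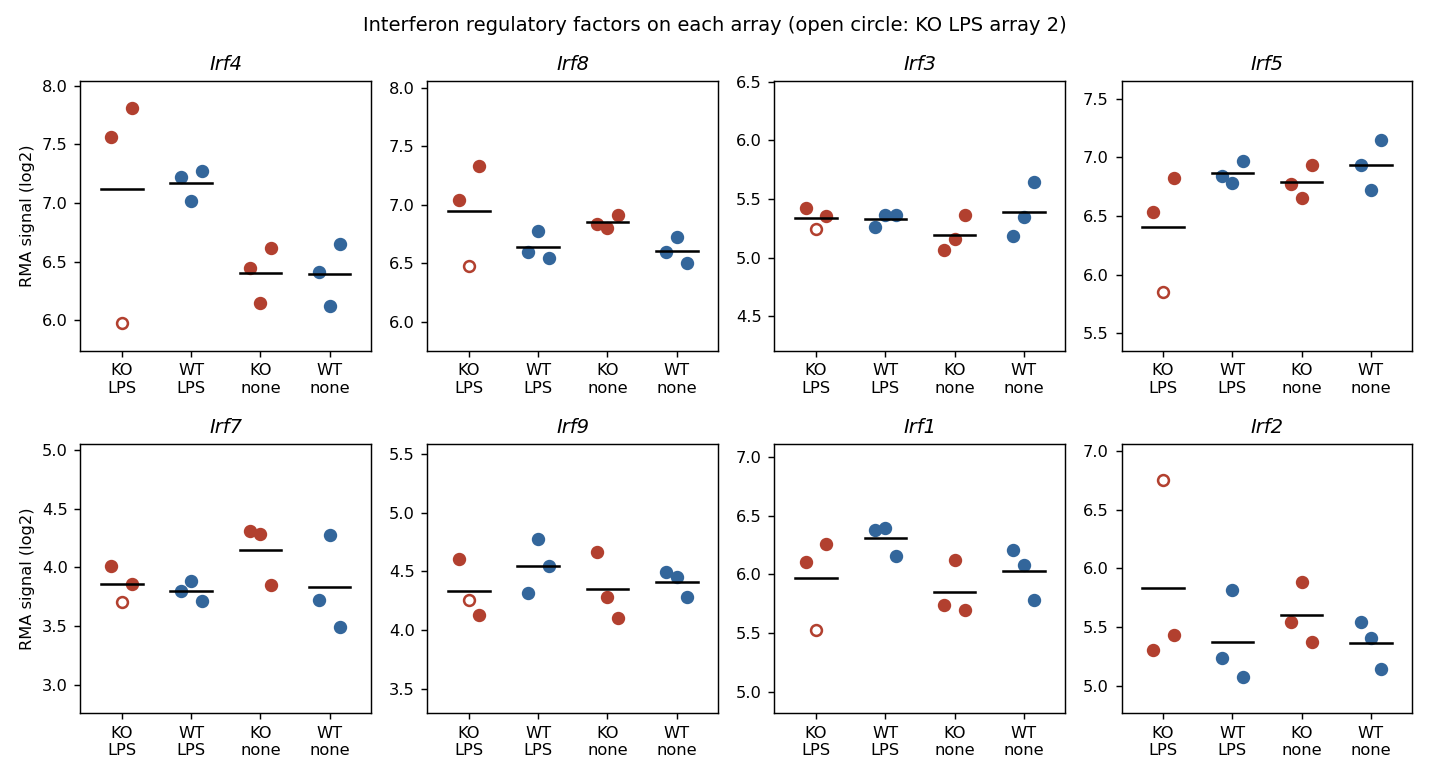
Log2 signal (vertical axis) of the main probe set of each of the 8 Irf genes on all 12 arrays, by group along the horizontal axis, each point an array and each bar a group mean, with KO LPS array 2 drawn apart. Irf4 lay at 7.02 to 7.81 on 5 of the 6 LPS arrays and at 5.97 on KO LPS array 2, against 6.12 to 6.65 without stimulation.

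Irf4 was the Irf gene with the largest LPS difference, and in KO cells it rose 2.44-fold with LPS once the array that stood apart was left out. In WT cells it was 1.72-fold higher with LPS, and that difference passed the test in both probe sets only where the array was left out and the array numbers were used as pairs. The brighter probe set, 1421173_PM_at, read 7.56, 5.97 and 7.81 in KO cells with LPS, against 6.45, 6.15 and 6.61 in unstimulated KO cells. In WT cells it read 7.22, 7.02 and 7.28 with LPS, against 6.41, 6.12 and 6.65 without. All LPS values lay above all unstimulated values in WT, and in KO the exception was array 2, the lowest of the 12. The second probe set, 1421174_PM_at, read 7.01, 5.32 and 7.27 in KO with LPS, against 5.88, 5.47 and 6.28 in unstimulated KO, and 6.67, 6.48 and 6.80 in WT with LPS, against 5.95, 5.79 and 5.87 in unstimulated WT. It showed the same order of groups, and the pair of probe sets correlated at 0.978 over the 12 arrays, which share group differences and array quality.

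Over 12 arrays, the Irf4 LPS difference in KO was 0.71 on the log2 scale (1421173_PM_at, SE 0.36, 95% interval -0.07 to 1.49, limma adjusted p = 0.567). Without KO LPS array 2 it was 1.28 (SE 0.17, interval 0.91 to 1.66, adjusted p = 0.00385), and 1.26 in the second probe set (SE 0.19, adjusted p = 0.00793). In WT it was 0.78 in both probe sets, with adjusted p of 1 over 12 arrays and of 0.0594 and 0.114 without that array. With the array left out and the array number within genotype as a block, the limma adjusted p for LPS in WT was 0.00190 and 0.00188, and 1.05% of all probe sets were called higher in that fit. Over the 28 alternative settings tried, the adjusted p of 1421173_PM_at ran from 0.000533 to 0.811 for LPS in KO and from 0.00190 to 1 for LPS in WT. By array number, the LPS minus unstimulated difference was 1.12, -0.17 and 1.19 in KO and 0.81, 0.90 and 0.63 in WT.

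Irf4 was not called between genotypes. Unstimulated means were 6.40 ± 0.24 in KO and 6.39 ± 0.27 in WT (SD, n = 3 arrays each), a difference of 0.01 (limma adjusted p = 0.997). With LPS the means were 7.11 ± 1.00 in KO and 7.17 ± 0.14 in WT, a difference of -0.06 (adjusted p = 0.963). Leaving out array 2 moved the KO mean to 7.69 ± 0.17 (n = 2). The KO minus WT difference with LPS was then 0.51 (interval 0.14 to 0.89, limma adjusted p = 0.307), and the difference between the LPS effects, KO minus WT, was also 0.51 (interval 0.01 to 1.00, adjusted p = 0.999), against -0.07 over 12 arrays (adjusted p = 0.991). Both Irf4 probe sets of KO LPS arrays 1 and 3 lay above all WT LPS arrays, as did both of Irf8. Without array 2, 25.8% of all probe sets did not overlap between these groups, and 11% did not with KO higher. The 4 of 12 come from Irf4 and Irf8 alone, whose probe sets followed each other, so no conclusion is drawn from this count. For the DC type that Irf4 serves, cDC2 markers averaged 4.14 to 4.73 in KO and 4.13 to 4.47 in WT. Of 6 measured cDC2 genes, 1 was called lower and 0 higher in KO averaged over stimulation, with and without array 2. The part of these and of the plasma cell markers given above in the Irf4 values was not tested.

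**Figure D2:**
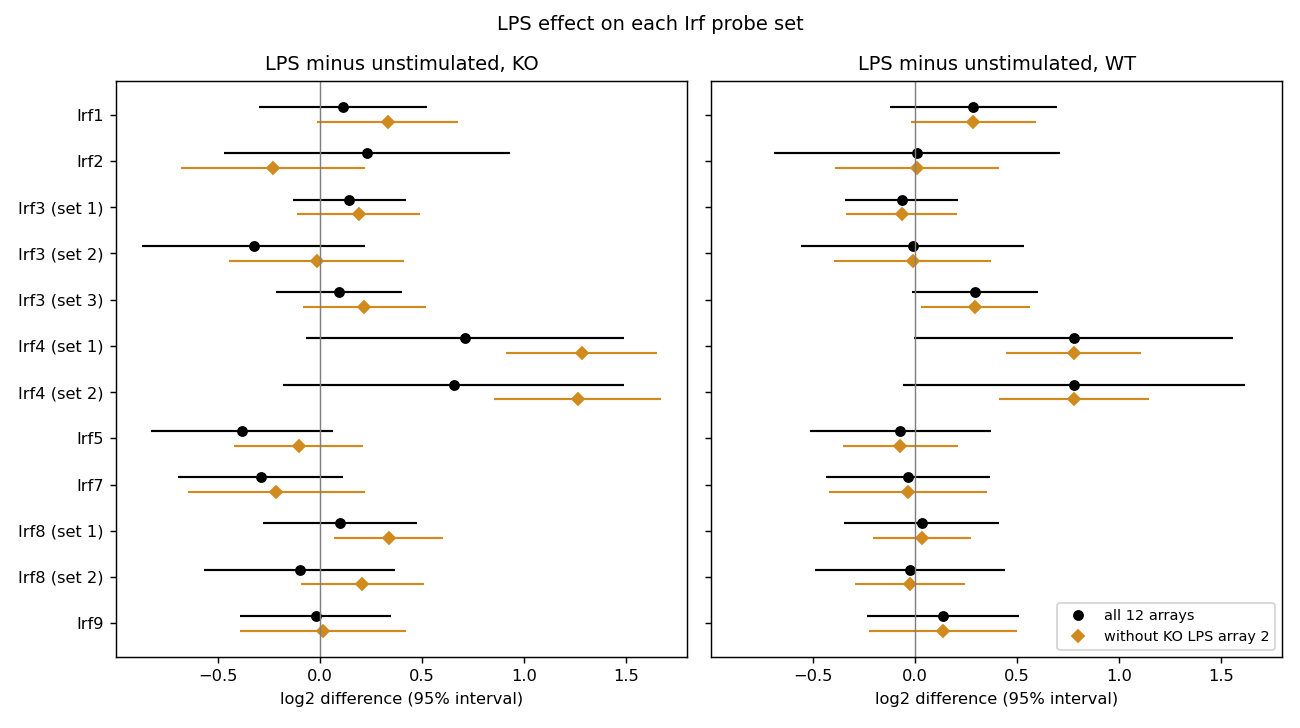
LPS minus unstimulated log2 difference with its 95% interval (horizontal axis) for each of the 12 Irf probe sets (vertical axis), in KO and WT cells, over all 12 arrays and without KO LPS array 2. The intervals of both Irf4 probe sets in KO lie above 0 only without that array, at 1.28 and 1.26.

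Irf8 was the Irf gene called between genotypes, 1.32-fold higher in KO cells averaged over stimulation without KO LPS array 2, a call made where that array was left out or given less weight and not over 12 equally weighted arrays. The brighter probe set, 1448452_PM_at, read 6.83, 6.80 and 6.92 in unstimulated KO cells, against 6.60, 6.72 and 6.50 in unstimulated WT cells. With LPS it read 7.04, 6.48 and 7.33 in KO, against 6.59, 6.77 and 6.55 in WT. All unstimulated KO values lay above all unstimulated WT values, and with LPS KO arrays 1 and 3 lay above and KO array 2 below all WT arrays. The second probe set, 1416714_PM_at, read 6.63, 6.32 and 6.69 in unstimulated KO, against 6.37, 6.35 and 6.19 in unstimulated WT, and 6.63, 5.83 and 6.87 in KO with LPS, against 6.19, 6.44 and 6.20 in WT with LPS. Its unstimulated groups overlapped through KO array 2. The brighter probe set was the 1 of 12 Irf probe sets whose unstimulated genotypes did not overlap, where 16.5% of all probe sets did not, and with LPS over all arrays 0 of 12 did, where 17.1% of all did.

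Averaged over stimulation, 1448452_PM_at differed by 0.28 between KO and WT (SE 0.12, interval 0.01 to 0.55, limma adjusted p = 0.292). Without KO LPS array 2 the difference was 0.40 (SE 0.08, interval 0.22 to 0.58, adjusted p = 0.0218), with KO higher both with LPS and without. This fit counts the LPS and unstimulated arrays of a genotype as separate samples. With same-numbered arrays of a genotype as a random block and KO LPS array 2 left out, the difference was 0.39 (limma adjusted p = 0.0372). The second probe set gave 0.21 over 12 arrays (adjusted p = 0.548) and 0.36 without that array (adjusted p = 0.0565). Over 27 alternative settings the adjusted p of the brighter probe set ran from 0.0126 to 0.484. The lowest came without KO LPS array 2 and with array numbers shared between KO and WT as a block, a pairing the labels do not give. Within a stimulation the differences were 0.24 unstimulated (adjusted p = 0.784) and 0.31 with LPS (adjusted p = 0.449). The LPS difference of Irf8 was 0.10 in KO (interval -0.28 to 0.48, adjusted p = 0.905), or 0.34 without array 2 (adjusted p = 0.474), and 0.03 in WT (adjusted p = 1). The neutrophil and NK markers given above differ between the same arrays, and their part in the Irf8 difference was not tested. The part of the B cell markers given above was not tested. In such bulk RNA, fewer cells of a type and less RNA per cell cannot be told apart. For the DC types that Irf8 serves, plasmacytoid DC markers averaged 4.43 to 4.70 in KO and 4.37 to 4.56 in WT, and cDC1 markers 4.15 to 4.47 in KO and 4.14 to 4.55 in WT. Of these, 1 of 7 plasmacytoid DC genes was called higher and 2 of 7 cDC1 genes lower in KO averaged over stimulation over 12 arrays. Of all genes, 2.36% were called there in either direction. Without KO LPS array 2, where Irf8 was called, the counts were 1 of 7 higher and 3 of 7 lower, beside 3.62% of all genes. The part of these DC markers in the Irf8 difference was not tested either.

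**Figure D3:**
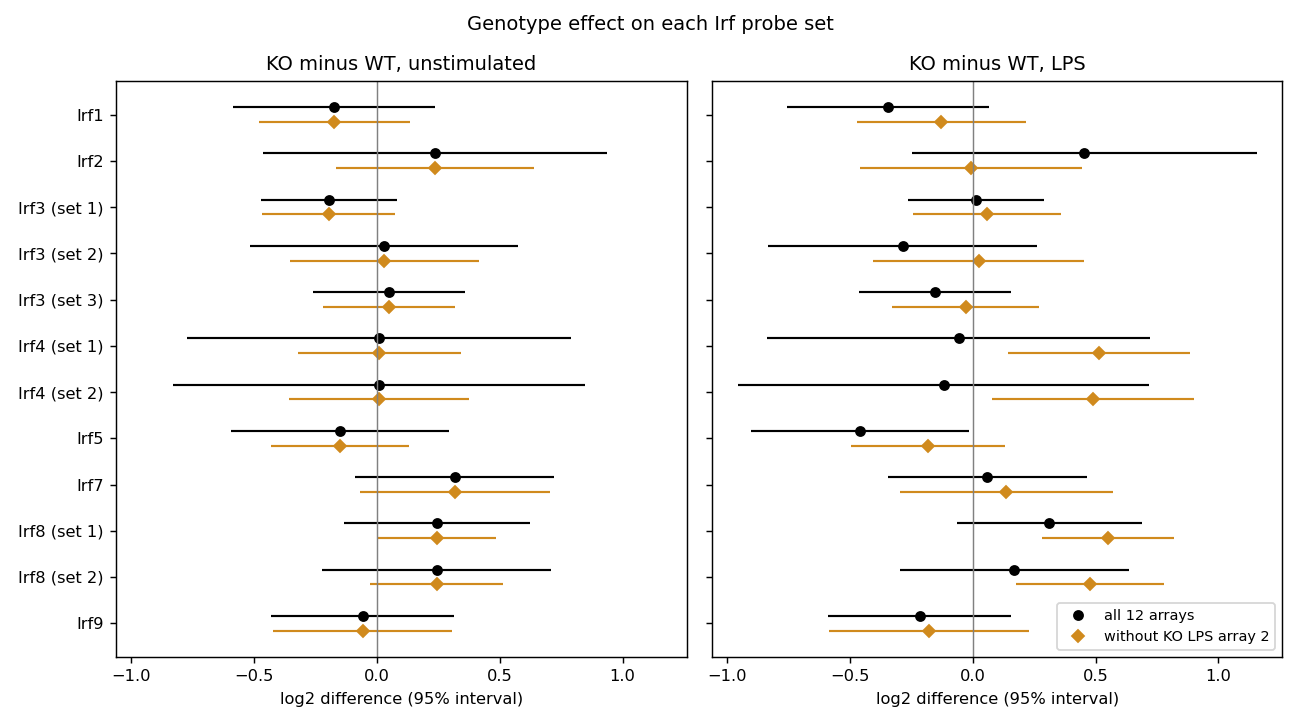
KO minus WT log2 difference with its 95% interval (horizontal axis) for each of the 12 Irf probe sets (vertical axis), unstimulated and with LPS, over all 12 arrays and without KO LPS array 2. Without that array, the brighter Irf8 probe set (set 1) differed by 0.24 unstimulated and by 0.55 with LPS (interval 0.28 to 0.82, limma adjusted p = 0.094).

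Irf3, Irf5 and Irf7, the factors activated by phosphorylation, showed no called difference in transcript. Irf3 is present before stimulation and is switched on by the kinase TBK1. Its brightest probe set, 1426111_PM_x_at, whose suffix marks that some of its probes also match other transcripts, read 5.42, 5.25 and 5.35 in KO with LPS, against 5.07, 5.16 and 5.37 in unstimulated KO. In WT it read 5.26, 5.36 and 5.36 with LPS, against 5.19, 5.34 and 5.65 without. The groups overlapped in both genotypes, with LPS differences of 0.14 in KO (interval -0.13 to 0.42, limma adjusted p = 0.765), or 0.19 without array 2, and -0.07 in WT (interval -0.34 to 0.21, adjusted p = 1). The unstimulated genotypes differed by -0.20 (interval -0.47 to 0.08, adjusted p = 0.753).

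The other Irf3 probe sets were dimmer and followed the brightest one loosely, at correlations of 0.273 to 0.420 over the 12 arrays. Probe set 1438721_PM_a_at read 3.89, 2.88 and 3.72 in KO with LPS, against 3.62, 3.68 and 4.18 in unstimulated KO, and 3.81, 3.58 and 3.96 in WT with LPS, against 3.55, 4.15 and 3.68 in unstimulated WT. Probe set 1416898_PM_a_at read 3.43, 3.10 and 3.51 in KO with LPS, against 3.09, 3.15 and 3.53 in unstimulated KO, and 3.38, 3.66 and 3.46 in WT with LPS, against 3.18, 3.21 and 3.22 in unstimulated WT. Its WT groups did not overlap, by a difference of 0.30 (interval -0.01 to 0.61, limma adjusted p = 1), while its KO groups did. With both Irf4 probe sets this made 3 of 12 Irf probe sets whose WT groups did not overlap, where 11.7% of all probe sets did not. In KO the count was 0 of 12 over all arrays, where 13.5% of all did not overlap, and 3 of 12 without array 2 (both of Irf4 and the brighter of Irf8), where 24.2% of all did not.

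**Figure D4:**
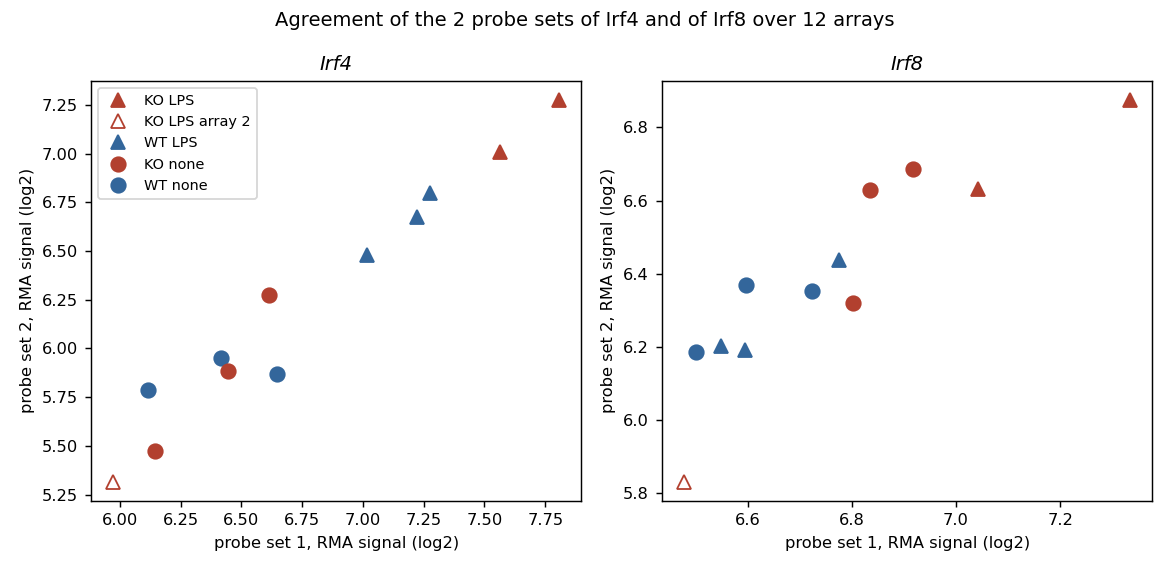
Log2 signal of the brighter (horizontal axis) against the dimmer probe set (vertical axis) of Irf4 and of Irf8, each point an array, with triangles for LPS and circles for no stimulation. The pairs followed each other, with r = 0.978 for Irf4 and 0.897 for Irf8, and the open symbol, KO LPS array 2, lay low on both axes.

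Irf5 drives inflammatory cytokine genes in myeloid cells. Its probe set, 1460231_PM_at, read 6.53, 5.85 and 6.83 in KO with LPS, against 6.84, 6.78 and 6.97 in WT with LPS. Without stimulation it read 6.77, 6.65 and 6.93 in KO, against 6.93, 6.72 and 7.15 in WT. KO array 2 was the lowest with LPS, and the groups overlapped at both stimulations. The KO minus WT difference with LPS was -0.46 (SE 0.20, interval -0.90 to -0.02, limma adjusted p = 0.345), which became -0.18 without KO LPS array 2 (adjusted p = 0.783). LPS differences were -0.38 in KO (adjusted p = 0.591) and -0.07 in WT (interval -0.52 to 0.37, adjusted p = 1), and the KO value without array 2 was -0.10.

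Irf7, which amplifies type I interferon production and is itself interferon-inducible in many cells, was read by probe set 1417244_PM_a_at. It gave 4.01, 3.70 and 3.86 in KO with LPS, against 4.31, 4.28 and 3.85 in unstimulated KO. In WT it read 3.80, 3.88 and 3.72 with LPS, against 3.72, 4.28 and 3.49 without. No group stood clear of another, and the LPS difference was -0.29 in KO (interval -0.69 to 0.11, limma adjusted p = 0.664), or -0.21 without array 2, and -0.03 in WT (interval -0.44 to 0.37, adjusted p = 1). The probe set was dim, with a mean of 3.91 over the 12 arrays. How far it lay above background is not known, so the WT interval does not limit the rise of the transcript itself. Unstimulated KO exceeded unstimulated WT by 0.32 (interval -0.09 to 0.72, adjusted p = 0.708).

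Irf9, the DNA-binding part of the interferon-stimulated complex, read 4.60, 4.25 and 4.13 in KO with LPS, against 4.67, 4.28 and 4.10 in unstimulated KO, on probe set 1421322_PM_a_at. In WT it read 4.31, 4.78 and 4.55 with LPS, against 4.49, 4.45 and 4.28 without. All groups overlapped, with LPS differences of -0.02 in KO (interval -0.39 to 0.35, limma adjusted p = 0.985), or 0.02 without array 2, and 0.14 in WT (interval -0.23 to 0.51, adjusted p = 1). KO minus WT was -0.06 unstimulated (adjusted p = 0.971) and -0.22 with LPS (adjusted p = 0.604), or -0.18 without array 2.

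Irf1, the activator, read 6.11, 5.53 and 6.26 in KO with LPS, against 5.74, 6.12 and 5.70 in unstimulated KO, on probe set 1448436_PM_a_at. In WT it read 6.38, 6.40 and 6.16 with LPS, against 6.21, 6.08 and 5.78 without. WT cells with LPS held the 2 highest values and KO LPS array 2 the lowest. The LPS difference was 0.11 in KO (limma adjusted p = 0.899), or 0.33 without array 2 (adjusted p = 0.656), and 0.29 in WT (interval -0.12 to 0.70, adjusted p = 1). By array number the LPS difference in WT was 0.17, 0.32 and 0.38, and in KO 0.37, -0.59 and 0.57. The KO minus WT difference with LPS was -0.35 (interval -0.76 to 0.06, adjusted p = 0.44), and -0.13 without array 2.

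Irf2, its antagonist, read 5.31, 6.75 and 5.43 in KO with LPS, against 5.54, 5.89 and 5.37 in unstimulated KO, on probe set 1418265_PM_s_at. In WT it read 5.23, 5.82 and 5.08 with LPS, against 5.55, 5.41 and 5.14 without. The highest value came from KO LPS array 2, the array with the lowest values of Irf1, Irf4, Irf5 and Irf8. KO minus WT with LPS was 0.45 (SE 0.32, limma adjusted p = 0.556), and -0.01 without that array. The LPS difference was 0.23 in KO (adjusted p = 0.872), or -0.23 without array 2, and 0.01 in WT (adjusted p = 1).

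Among the genes that act around the IRFs, in lists chosen with earlier results of these data known, a minority of targets rose with LPS. A list of IRF-driven targets held 21 measured genes (25 listed). Over 12 arrays, 5 rose and 0 fell with LPS in KO, and 4 rose and 0 fell in WT. Of all genes, 0.357% were called in either direction for LPS in KO and 0.123% in WT. The list's median LPS difference was 0.36 in KO and 0.28 in WT on the log2 scale, beside -0.02 and 0.00 over all genes, and without KO LPS array 2 it was 0.22 in KO. Ifit1, an RNA-binding antiviral protein gene, averaged 6.38 in KO with LPS against 3.46 without, a rise of 2.93 (SE 0.35), and 7.36 in WT with LPS against 4.74 without, a rise of 2.62 (SE 0.35, adjusted p = 0.0101). Ifit2, of the same family, rose by 2.35 in KO and 2.20 in WT, and Oasl1, an antiviral regulator, by 2.53 in KO and 1.98 in WT. Il12b, the p40 subunit gene of interleukin 12, rose by 1.65 in KO and 1.91 in WT. Cxcl10, a T cell chemokine gene, rose by 2.35 in KO, and its WT difference of 1.52 missed the threshold (limma adjusted p = 0.068). Without KO LPS array 2 the rises in KO were 2.87 for Ifit1, 1.97 for Ifit2, 2.74 for Oasl1, 1.83 for Il12b and 2.57 for Cxcl10, and each passed the test.

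Of 9 measured interferon signalling genes, 1 rose with LPS in each genotype and 0 fell. That gene was Ifnb1, which encodes interferon beta, at 3.56 in KO with LPS against 2.29 without (difference 1.27, limma adjusted p = 0.0463) and at 4.37 in WT with LPS against 2.53 without (1.84, adjusted p = 0.0069). Without KO LPS array 2 the Ifnb1 difference in KO was 1.17 (adjusted p = 0.0764), and the count was 0. Of 17 upstream signalling genes, 2 rose with LPS in KO, Ifih1, an RNA sensor gene, by 2.44 (adjusted p = 0.0029) and Tank, which links TRAF3 to the kinases of IRF3, by 0.76 (adjusted p = 0.0104), or by 2.24 and 0.78 without array 2. None of them passed in WT over 12 arrays, where Ifih1 differed by 1.58 (adjusted p = 0.068). Of 12 IRF partners and regulators and 11 DC development factors, 0 were called for LPS in either genotype. Among the partners, the largest LPS differences in KO that did not pass were -0.70 for Irf2bp2 (adjusted p = 0.248) and -0.60 for Spi1 (adjusted p = 0.455), or -0.45 and -0.25 without array 2.

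Between genotypes, 2 genes of these lists were called without stimulation and 1 with LPS, beside 0.222% and 0.374% of all genes. In unstimulated cells Cxcl10 averaged 4.65 in KO against 6.63 in WT, a fall of 1.99 (SE 0.27, limma adjusted p = 0.0212), and Gfi1, a repressor in blood cell development that also acts in neutrophils, was 1.56 higher (adjusted p = 0.0318). With LPS, Gfi1 was the 1 gene called over all 5 lists, 1.36 higher in KO (adjusted p = 0.0481). Averaged over stimulation, where 2.36% of all genes were called, Ifih1 fell by 1.13 (adjusted p = 0.0156), Cxcl10 by 1.57 (adjusted p = 0.0019) and Ifit1 by 1.13 (adjusted p = 0.0392) in KO. Gbp3, an interferon-inducible GTPase gene, rose by 0.95 (adjusted p = 0.0357), and Ifnar2, a subunit gene of the type I interferon receptor, by 0.43 (adjusted p = 0.0200). Gfi1, called in this comparison as well, was 1.46 higher, and the neutrophil markers given above were higher on the same arrays, whose part in it was not tested. Without KO LPS array 2, 3 upstream genes rose with LPS in KO and 1 in WT, 6 targets rose in WT, and unstimulated KO cells had 2 interferon signalling genes higher and 1 upstream gene lower. Of all genes, that fit called 0.556% for LPS in KO, 0.392% for LPS in WT, 0.942% between unstimulated genotypes and 3.62% between genotypes averaged over stimulation. The 6 genes called averaged over stimulation were called in the same direction in that fit, in which 2 upstream genes and 3 targets were called lower in KO averaged over stimulation, and 2 interferon signalling genes and 1 target higher. Over 12 arrays, limma called 0 genes in the 5 lists for the difference between the LPS effects.

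The genes most like each member were found by Pearson correlation with its main probe set over the 12 arrays, which share group differences and the array that stood apart. They are the highest of 8238 candidate genes over few arrays and were picked for their height, so no conclusion is drawn from it. For Irf4 they were Il4i1 (0.944, or 0.956 without KO LPS array 2), Syncrip (0.916, or 0.900) and Sar1a (0.916, or 0.908). For Irf8 they were Krt5 (0.898, or 0.897), Bcar3 (0.868, or 0.899) and Coq8a (0.862, or 0.847). For Irf5, Prpf8 stood at 0.966 over 12 arrays and 0.859 without that array, and for Irf2, Cab39 stood at 0.958 and 0.875. Metrnl for Irf1 (0.911), Nexmif for Irf3 (0.870), Rnf139 for Irf7 (0.858) and Tex22 for Irf9 (0.819) were the closest to the other members.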

How the data were processed

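DC expression was measured on 12 arrays, 3 per genotype and stimulation. RNA amplification used random and oligo(dT) primers and a biotin label, per the labels' protocols. RMA normalisation by the authors is named in the submitters' processing notes (version not given in the sources used here), and the deposited values are log2 signals. Of 45141 probe sets, the 104 controls, 551 with several symbols and 15588 without one were left out. The remaining 28898 were fitted with limma 3.58.1 (R 4.3.3, statmod 1.5.0) as 4 group means with lmFit and eBayes (8 residual degrees of freedom), with no filter on dim values. P-values were adjusted by Benjamini-Hochberg within each of 6 comparisons at a threshold of 0.05, two-sided, and intervals are 95% intervals from the same fit. The fit was tested on simulated data with independent noise of the same spread on each array. Those data held no array that stood apart and no paired arrays, so the test does not bear on calls that depend on either. Precision is limited by the number of arrays. The fit as reported did not pair arrays, since the labels do not say that the numbers pair mice. In the alternative block fits, same-numbered arrays were taken as pairs within a genotype, where each pair's deviations correlated above 0.2. For the KO against WT comparisons, the fixed replicate block instead shared each array number between KO and WT. The labels give separate mice within a group, so the p-values measure the spread between those samples. If LPS and unstimulated arrays share mice, the unpaired fit sets the LPS difference against the spread between mice and not against the spread of the response.

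The members, gene lists and marker lists were chosen with earlier results of these data known. Every single-symbol probe set of a member is reported, with the brightest as its main one. From each list, up to 4 called genes and up to 2 others with the largest change could be named, and the 3 best correlated genes per member were found among named genes above the median. List values use the brightest probe set per gene. Alternatives covered pairing, array weights, scaling, dim probe sets, the probe sets and samples fitted, the variance model and leaving out each array.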

Additional observations from a re-analysis of the deposited data

How the results depend on the processing

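The 12 Irf probe sets were refitted under 28 alternative settings, 6 of which combined leaving out KO LPS array 2 with another change and were chosen after seeing the data. Of 1944 values, 1916 kept their side of the threshold and 28 became called. None was called in the fit as reported, so no call could reverse or be lost. Of the values uncalled both times, 171 changed sign, so the direction of those small differences is not settled. The fit as reported, over 12 arrays, called 0 Irf probe sets in each comparison. For LPS in WT the count was 1 with only the compared groups fitted (Irf4 1421174_PM_at, 0.78, limma adjusted p = 0.0254), and 2 without KO LPS array 2 with either the fixed replicate block or the random block. For LPS in KO it was 1 with array weights (Irf4, 1.12, adjusted p = 0.0394) and with 1 probe set per gene without that array. It was 2 without that array alone or combined with either block, all probe sets, dim probe sets left out or quantile normalization. For KO against WT averaged over stimulation it was 1 with array weights (Irf8, 0.36, adjusted p = 0.0443), without that array, and without it combined with either block, 1 probe set per gene, all probe sets or quantile normalization, and 2 with dim probe sets also left out. Leaving out each array in turn gave 0 to 2 for LPS in KO, 0 to 1 for the averaged comparison and 0 in the other 4. With all 12 arrays, the replicate block called 0 Irf probe sets in each comparison, so the pairing changed calls only without KO LPS array 2. The cause was not tested.

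Counts over all probe sets moved by more than 1.5 times. They were 47 in the fit as reported and 6 to 839 over the alternatives for unstimulated KO against WT, 93 and 0 to 511 with LPS, 37 and 11 to 337 for LPS in WT, 87 and 8 to 250 for LPS in KO, 614 and 260 to 1769 averaged, and 0 throughout for the difference. The counts of 839 and 1769 came without KO LPS array 2 and with array numbers shared between KO and WT as a block, a pairing the labels do not give. The deposited values carry no background signal, so how far the Irf probe sets lay above it is not known, the dimmer Irf3 ones and that of Irf7 among them.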
